A study of Mus musculus with 21 samples.

Results

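Monocyte/macrophages taken from the inflamed peritoneal cavity 18 h after zymosan were compared with monocytes of the bone marrow of naive mice, across all genes measured. The 3 arrays of each group were taken by their labels, 6 of the 21 arrays of the series, and 18194 genes had at least 1 probe set naming no other gene, of which 12155 passed a filter on low signals and were tested. The 18 h cells came from female C57BL/6 mice, 7-8 weeks old, injected intraperitoneally with zymosan, particles of yeast cell wall rich in beta-glucan, and were sorted from the lavage as Ly-6G- cells with positive or low Ly-6B. The bone marrow monocytes came from untreated mice of the same strain, sex and age, were flushed from the bones, passed through red cell lysis and sorted as Ly-6B+ Ly-6G-. Tissue, zymosan, red cell lysis and the Ly-6B gate therefore differ together between the groups, and their shares in a difference cannot be told apart. Where a result turns on what had already changed early in the inflammation, 3 arrays of Ly-6B+ Ly-6G- peritoneal lavage cells of 4 h after zymosan are given beside them, and 3 arrays of naive peritoneal resident macrophages with high F4/80 and CD11b serve as a level for macrophage genes. Per the labels the 3 arrays of a group are biological replicates, and whether a replicate was 1 mouse or a pool of mice is not stated.

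Monocytes arise in the bone marrow from dividing progenitors that they share with granulocytes, and leave it through the chemokine receptor CCR2. In inflamed tissue they can become macrophages, which clear dying cells through bridging proteins and scavenger receptors, digest them in lysosomes, move the lipid they take up, and present antigen on MHC class II. Arginase 1, the secreted protein RELM alpha (Retnla) and the mannose receptor (Mrc1) are widely used markers of alternative activation, a macrophage state induced by interleukin-4 and related signals.

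Values are MAS5 signals, the brightness of a gene's probe set after the array was scaled to a common trimmed mean. Signals of different genes are not on one scale and are not set against each other. Sums over a list are the exception, and the brighter probe sets weigh most in them. Changes are log2 fold changes from limma on log2(signal + 15), where 15 keeps signals near the floor from giving very large ratios, so that the change of a gene near the floor in one group is understated. Adjusted p is limma's, with the Benjamini-Hochberg adjustment over all 12155 genes, and a gene was called higher or lower, written as rose or fell, with an adjusted p under 0.05 and a change of at least 1 on the log2 scale. Arrays of one group correlated at r of 0.976 to 0.980 at 18 h and 0.970 to 0.981 in bone marrow across genes, which are not independent replicates. Precision is limited by there being 3 arrays in a group.

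Of the genes tested, 885 (7.28%) rose and 1004 (8.26%) fell in the 18 h cells, 15.5% in either direction. Changes of at least 3 on the log2 scale were found for 132 genes that rose and 200 that fell, and changes of at least 5 for 33 and 51. The arrays of the groups did not overlap for 22.6% of genes in the higher and 23.8% in the lower direction, 46.4% in either. The median gene changed by -0.01, and with the arrays set to a common median 994 genes rose and 925 fell.

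**Figure D1:**
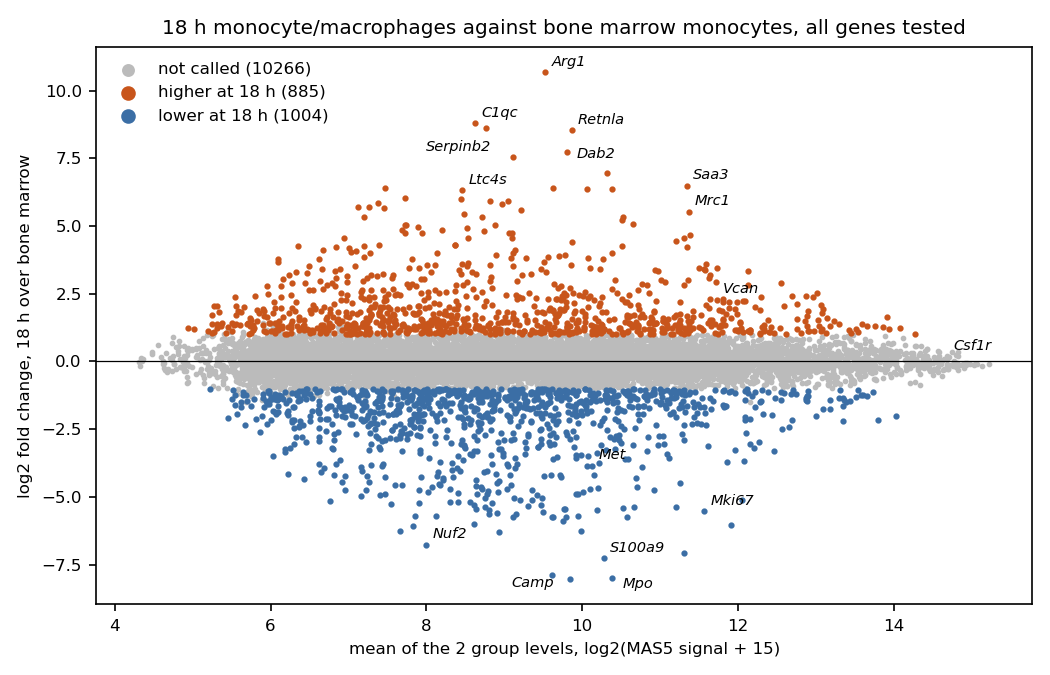
Each point is 1 of the 12155 genes tested, with the mean level of the 18 h and bone marrow groups on the x axis (log2 of the MAS5 signal + 15) and the log2 fold change, 18 h over bone marrow, on the y axis. The 885 genes called higher and the 1004 called lower lie on both sides of 0, with Arg1 highest at 10.67 and Camp lowest at -8.02.

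The labels were first set against markers of the cells. Mrc1 had signals of 14769, 20609 and 18589.8 at 18 h, against 429, 362 and 329.7 in bone marrow, a log2 fold change of 5.53 (SE 0.21, adjusted p = 4.1e-14). Adgre1, which encodes the macrophage marker F4/80, had 16488, 17052 and 16892 at 18 h and 4927, 5064 and 3438 in bone marrow (1.93, adjusted p = 3.4e-11). Both genes were high in all 3 arrays of 18 h, and the groups did not overlap. Itgam, the CD11b subunit of an adhesion integrin, also rose (2.27). Vcan, a proteoglycan that marks classical monocytes, had 8430.3, 7638 and 6004 at 18 h and 1359, 2188 and 1106 in bone marrow and rose by 2.28. Mki67, a protein of dividing cells, had 480.0, 434 and 382 at 18 h, against 20868, 17555 and 23533 in bone marrow, and fell by 5.53 (adjusted p = 6.8e-08). The macrophage genes were thus higher at 18 h and the proliferation gene higher in bone marrow. The arrays did not overlap for any of these 4 markers, as for 46.4% of all genes.

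The receptors through which monocytes are recruited and kept alive were not among the genes called. Ccr2 had 14390.0, 15272 and 19098 at 18 h and 12818, 13536 and 9680.4 in bone marrow, a change of 0.44 with an adjusted p of 0.34. Csf1r, the receptor for macrophage colony-stimulating factor, had 25776, 25994 and 32906 at 18 h and 25219, 23602 and 24674 in bone marrow (0.20, adjusted p = 0.16). The fractalkine receptor gene Cx3cr1 had 1537, 1763 and 1889.8 at 18 h and 2169, 1949 and 2101 in bone marrow (-0.26, adjusted p = 0.66). Of 15 classical monocyte genes tested, 3 rose (Vcan, the lectin gene Clec4e at 1.76 and the matrix glycoprotein gene Thbs1 at 1.28) and 2 fell. Those that fell were Mgst1, a microsomal glutathione transferase (-2.49, or -1.35 with the mean of its probe sets), and Hp, haptoglobin (-1.23). The Thbs1 call was lost without the second 18 h array and with the ratio of 3' to 5' Gapdh signal, a measure of RNA length, as a covariate. The median of the list was -0.26, and of all genes 7.28% rose and 8.26% fell.

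**Figure D2:**
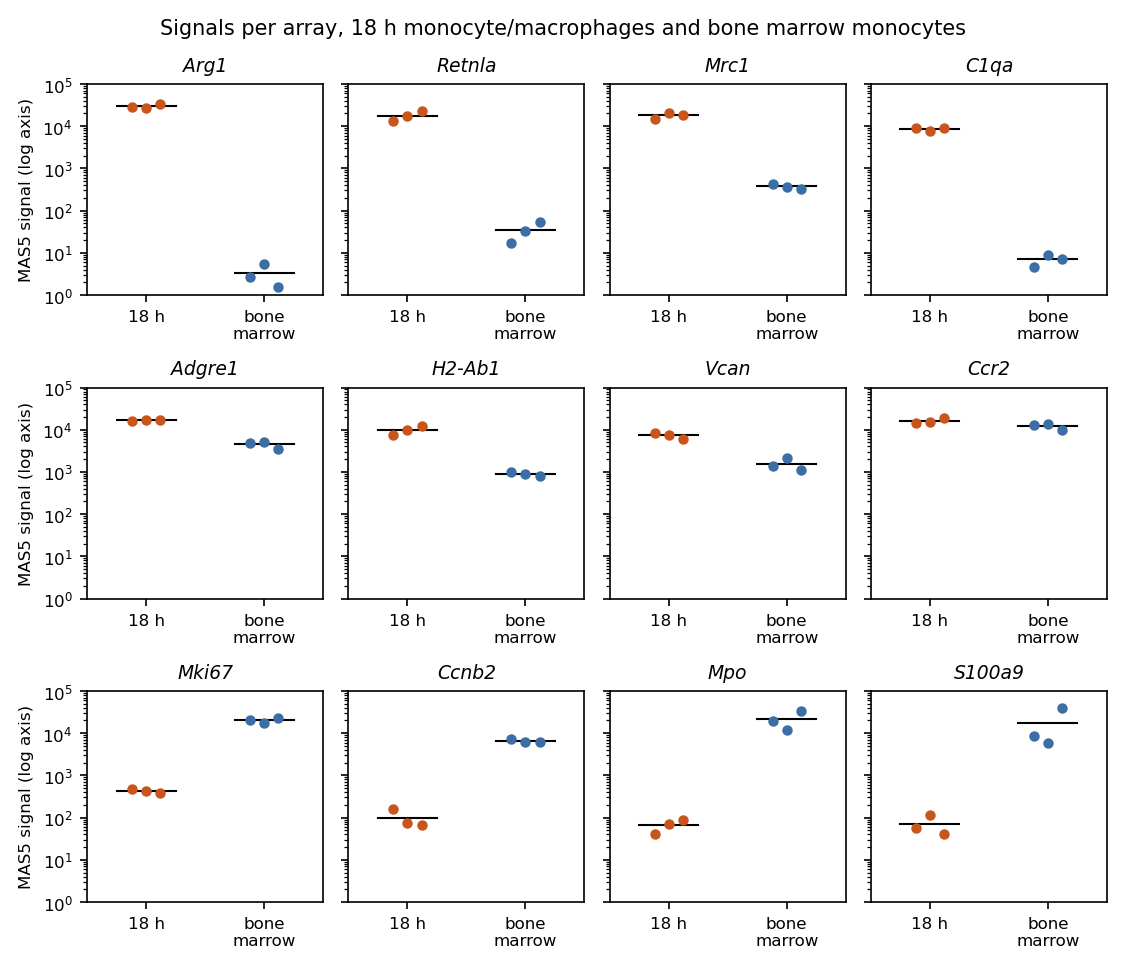
Each panel shows 1 gene, with the MAS5 signal of each array on a log axis, the 3 arrays of 18 h on the left and the 3 of bone marrow on the right, and a bar at each group's mean. In every panel but that of Ccr2 the gene was called, and the bone marrow arrays of S100a9 ran as high as 39146 and as low as 5796.

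Genes of cell division fell together. All 33 mitosis genes tested fell, against 8.26% of all genes, with a median change of -5.21 and a range from -6.76 to -2.96. Nuf2, a kinetochore subunit that ties chromosomes to the spindle, had signals of 6.74, 6.78 and 15.3 at 18 h and 2812, 2263 and 2837 in bone marrow (-6.76, adjusted p = 3.1e-10). Ccnb2, a mitotic cyclin, had 160.4, 72.6 and 67.9 at 18 h and 7096, 6027 and 6328 in bone marrow (-5.90). Cdc20, which activates the ligase that starts anaphase, had 215, 149 and 214 at 18 h and 12035, 8894 and 12652 in bone marrow (-5.75). The groups were far apart for each of them, with every bone marrow array above every 18 h array, as for 23.8% of all genes. Ube2c, which works with the same ligase, fell by 6.30, and outside the list the condensin subunit Ncapg fell by 6.25 and the spindle protein Spag5 fell by 6.08. Summed over the list, the signal was 4474 to 5387 in the 18 h arrays and 147791 to 178661 in the bone marrow arrays. In sorted populations such as these, fewer dividing cells and less of the RNA in each cell cannot be told apart.

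Of 35 DNA replication genes tested, 33 fell and 0 rose, against 8.26% and 7.28% of all genes, with a median change of -2.52. Rrm2, a subunit of the reductase that makes deoxyribonucleotides, had 229.8, 173 and 227 at 18 h and 8718, 7499 and 12858 in bone marrow (-5.41). Tk1, thymidine kinase, fell by 4.89, Ccne2, a cyclin of the entry into S phase, fell by 4.32, and Pole, the catalytic subunit of a replicative polymerase, fell by 4.06. Pola1, the catalytic subunit of the polymerase that starts new strands, had 189, 226 and 161 at 18 h and 1458, 1338 and 1676 in bone marrow (-2.87, or -1.68 with the mean of its probe sets). Mcm5, a subunit of the replicative helicase, averaged 1262 ± 218 at 18 h and 12363 ± 1486 in bone marrow (SD, n = 3 arrays each). Another subunit, Mcm7, averaged 1199 ± 129 at 18 h and 15421 ± 1819.6 in bone marrow. No array of 18 h reached a bone marrow array for any of these genes, as for 23.8% of all genes.

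Both lists are known for shared promoter letters, and 3 promoters are printed to show them. The windows are RefSeq's for GRCm38.p6, 250 bases before to 50 after the start of the gene, 5' to 3' on the gene's strand. Capitals in the promoters of Ccnb2 and Cdc20 mark TTTGAA, the letters of the cell cycle homology region, and CCAAT, the letters bound by NF-Y. In Pola1, chosen after its values were seen, capitals mark CCAAT and the E2F-type letters TTGGCGC or TTCCCGC or TTGCCGC or TTCGCGC. All were searched on both strands, and a CCAAT match on the other strand can share letters with TTGGCGC. Ccnb2 lies on the minus strand at chr9:70421505-70421804, Cdc20 on the minus strand at chr4:118437294-118437593, and Pola1 on the minus strand at chrX:93632106-93632405.
Ccnb2: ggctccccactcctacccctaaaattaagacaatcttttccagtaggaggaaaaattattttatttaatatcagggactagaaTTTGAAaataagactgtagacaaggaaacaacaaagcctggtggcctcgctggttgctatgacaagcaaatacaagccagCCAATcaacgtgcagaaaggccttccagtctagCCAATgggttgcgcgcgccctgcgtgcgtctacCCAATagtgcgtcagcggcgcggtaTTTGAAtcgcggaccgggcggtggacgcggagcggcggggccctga
Cdc20: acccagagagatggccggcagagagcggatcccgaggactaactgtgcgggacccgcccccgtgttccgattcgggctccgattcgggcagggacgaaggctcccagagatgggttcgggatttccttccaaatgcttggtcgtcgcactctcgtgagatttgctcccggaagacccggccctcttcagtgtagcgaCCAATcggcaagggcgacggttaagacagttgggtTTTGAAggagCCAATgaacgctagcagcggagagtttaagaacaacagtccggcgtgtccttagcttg
Pola1: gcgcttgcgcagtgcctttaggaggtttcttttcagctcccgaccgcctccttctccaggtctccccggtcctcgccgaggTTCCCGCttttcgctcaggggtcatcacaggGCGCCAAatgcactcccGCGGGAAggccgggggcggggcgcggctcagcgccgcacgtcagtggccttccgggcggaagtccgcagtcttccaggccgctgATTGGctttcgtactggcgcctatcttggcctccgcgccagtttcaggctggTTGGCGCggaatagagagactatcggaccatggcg

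The Ccnb2 window holds 2 matches to TTTGAA and 3 to CCAAT, that of Cdc20 1 and 2, and that of Pola1 4 E2F-type matches and 1 CCAAT match. Of 30 windows found for 28 of the 33 mitosis genes, 22 (73.3%) hold both TTTGAA and CCAAT, against 6.95% of the 32851 windows of all promoters. Of 34 windows found for 29 of the 35 replication genes, 22 (64.7%) hold an E2F-type match, against 9.57% of all windows, and 8.82% hold TTTGAA, against 17.9% of all. These are matches of letters and not measured binding.

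Genes of granules and of progenitors were also among the largest decreases. Mpo, the myeloperoxidase of azurophil granules, had signals of 41.1, 69.9 and 89.2 at 18 h and 19598, 12013 and 33879 in bone marrow (-7.98, SE 0.35, adjusted p = 3.5e-13). Ctsg, cathepsin G, had 71.3, 39.5 and 4.57 at 18 h and 10281, 6618 and 17247 in bone marrow (-7.87). Myb, a transcription factor of dividing progenitors, had 32.3, 26.7 and 33.3 at 18 h and 2554, 1589 and 5917 in bone marrow (-5.99). All 3 genes were low in every 18 h array, and in bone marrow replicate 3 had the highest signal of each. Of the 13 progenitor genes tested, 11 fell, against 8.26% of all genes. Among them were Elane, neutrophil elastase (-5.55), the protease gene Prtn3 (-3.20) and the repressor gene Gfi1 (-3.93). The call of Kit, the receptor for stem cell factor, was lost in 5 of 16 alternatives.

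Most genes of the neutrophil list fell too, against 8.26% of all genes. Camp, which encodes the antimicrobial peptide cathelicidin, had 39.2, 54.97 and 16.4 at 18 h, against 11229.8, 5844 and 31716 in bone marrow (-8.02, adjusted p = 2.6e-09). S100a9, a subunit of the calcium-binding protein calprotectin, had 56.7, 116 and 41.7 at 18 h, against 8538, 5796 and 39146 in bone marrow (-7.27). Its partner S100a8 fell by 6.06, the granule protein Ngp fell by 7.06 and lactoferrin, Ltf, fell by 6.26. The groups did not overlap for any of them, as for 46.4% of all genes, and bone marrow replicate 3 was again the highest, at 39146 for S100a9. Of 16 neutrophil genes tested, 11 fell and 3 rose, namely the gelatinase gene Mmp9 (1.70), Padi4 (2.09), which citrullinates histones, and Lrg1 (1.70), for which bone marrow replicate 3 overlapped the 18 h arrays and 3 of 17 alternatives lost the call. Summed over the 17 genes of the list with a probe set used here, the signal was 12089 to 13672 at 18 h and 74236 to 218438 in bone marrow. Without bone marrow replicate 3 the changes were -6.44 for S100a9, -7.60 for Mpo, -7.37 for Camp and -5.47 for Myb, and 10 progenitor and 11 neutrophil genes fell. Neutrophils carry Ly-6G, which the gates of both groups leave out, and the part of other cells within the bone marrow gate in these decreases was not tested.

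Genes of the uptake of dying cells and of scavenger receptors were mostly higher. Of 29 tested, 21 rose and 1 fell, against 7.28% and 8.26% of all genes, with a median change of 2.00. The genes for the 3 chains of C1q, the complement protein that bridges dying cells to phagocytes, all rose, and those for the A and C chains were near the floor in bone marrow. C1qa had 8922, 7587 and 9259.5 at 18 h and 4.74, 9.05 and 7.05 in bone marrow (8.61, SE 0.33, adjusted p = 4.6e-14). C1qc had 7761, 8415 and 8863 at 18 h and 2.82, 4.84 and 3.57 in bone marrow (8.80), and C1qb, with 16976, 9284 and 16762 at 18 h and 87.1, 119.5 and 86.3 in bone marrow, rose by 6.95. The 18 h arrays lay close together for C1qa and C1qc, and for all 3 chains they lay far above every bone marrow array. Dab2, an adaptor for endocytosis of cargo receptors, had 12874, 14608 and 11250.2 at 18 h and 45.8, 32.6 and 60.7 in bone marrow (7.74). Mertk, the receptor tyrosine kinase that binds dying cells through bridging proteins, had 2172, 2211 and 2332 at 18 h and 72.6, 48.2 and 77.9 in bone marrow (4.81).

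Scavenger and lectin receptors rose with them. Cd36, a receptor for oxidised lipid, had 3996, 5235 and 2982 at 18 h, against 62.6, 107 and 45.9 in bone marrow (5.58). Cd163, the receptor for haptoglobin with haemoglobin, rose by 3.51, Stab1, a clearance receptor, by 5.91, Marco, which binds bacteria and particles, by 5.68 (3.12 with the mean of its probe sets), and the folate receptor gene Folr2 by 4.72. Tgm2, the tissue transglutaminase that aids engulfment, had 9198, 7767 and 10888 at 18 h and 53.6, 100.1 and 167 in bone marrow (6.35). The 1 gene of the list that fell was Itgb3, the integrin beta3 chain, with 3.08, 53.9 and 11.3 at 18 h and 648, 477 and 642 in bone marrow (-4.22, or -2.18 with the mean of its probe sets). Its partner chain Itgav rose by 1.35, a call that was lost when the mean of the gene's probe sets was used.

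The largest increase of all genes tested was that of Arg1. Its signals were 28104, 27586 and 33599 at 18 h and 2.69, 5.44 and 1.59 in bone marrow (10.67, SE 0.31, adjusted p = 7.6e-16), with the bone marrow arrays at the floor. Retnla had 13335, 17345 and 22395 at 18 h, against 17.1, 32.1 and 52.97 in bone marrow (8.53, SE 0.32). Both genes were high in all 3 arrays of 18 h. Of 17 alternative activation genes tested, 11 rose and 0 fell, against 7.28% and 8.26% of all genes, with a median of 1.77. Alox15, a lipoxygenase, rose by 5.98, and Egr2, a transcription factor induced by interleukin-4, had 1252, 4742 and 5151 at 18 h and 193, 143 and 773 in bone marrow (3.41), its first 18 h array the lowest of the 3.

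Genes used to mark resident peritoneal macrophages were higher too, but most were far from the resident level. Of 18 tested, 15 rose and 0 fell, against 7.28% and 8.26% of all genes, with a median change of 2.77. Timd4, a receptor for phosphatidylserine on dying cells, had 444, 365 and 232 at 18 h and 3.30, 2.05 and 5.22 in bone marrow (4.25), and its mean at 18 h was 1.86% of that in resident macrophages. Gata6, the transcription factor of the resident cells, rose by 1.67 to 4.97% of the resident mean. Prg4, which encodes lubricin, rose by 5.83 to 10.6%. The median over the 18 genes was 4.90%, and 16 of them were under 15%. The others were Adgre1 at 47.3% and Laptm5 at 79.9%, the latter at 74.9% in bone marrow already. The share was 29.9% for C1qa, 28.0% for C1qc, 51.9% for C1qb and 52.2% for Mertk, and the 18 h mean was above the resident mean for Mrc1 (996%), Folr2 (333%), Arg1 (275%) and Retnla (228%). These are shares of group means on the MAS5 scale. The lists share members, Alox15, Cd163 and Tgm2 among them, and the part of resident macrophages in the 18 h gate was not tested.

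**Figure D3:**
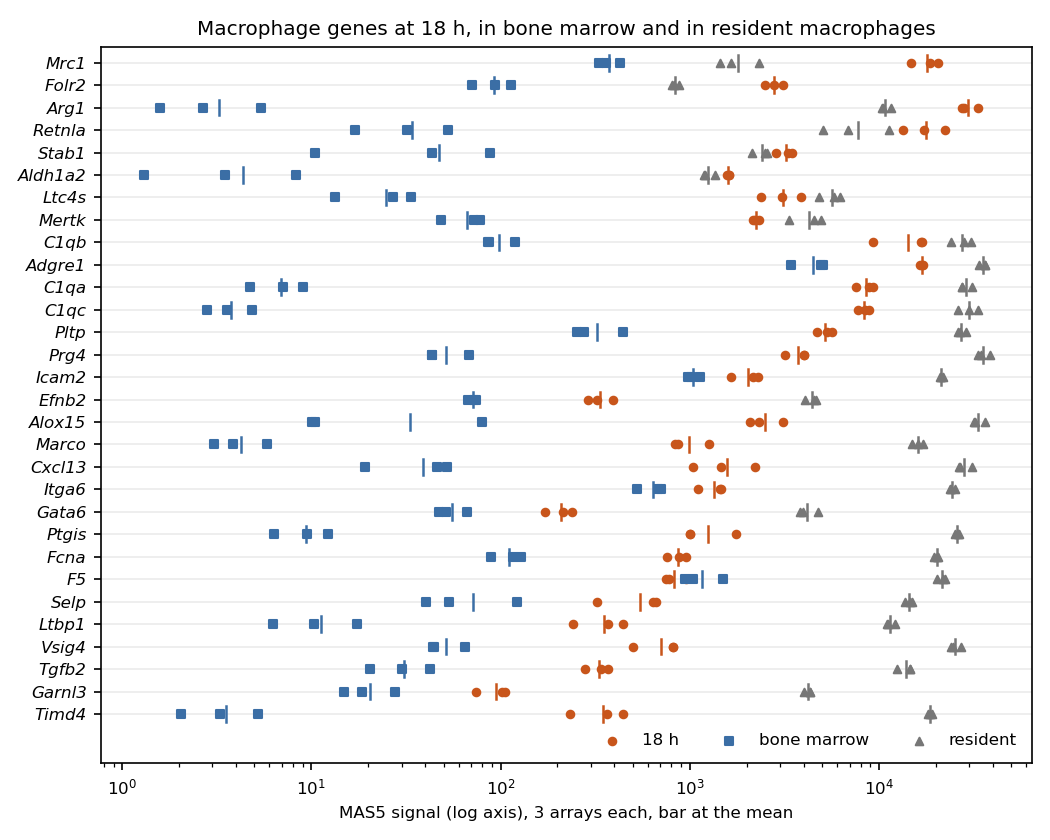
Genes of resident macrophages and of clearance and alternative activation are shown with the MAS5 signal of each array on a log x axis and a short bar at each group's mean, for 18 h cells (circles), bone marrow monocytes (squares) and resident macrophages (triangles). From Mrc1 at the top, at 996% of the resident mean at 18 h, the genes are ordered down to Timd4, at 1.86%. Laptm5 of the resident list, at 79.9%, is left out.

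Most cytokine and chemokine genes were higher at 18 h than in bone marrow. Of 28 inflammatory mediators tested, 17 rose and 1 fell, against 7.28% and 8.26% of all genes, with a median of 1.35. Ccl7, a ligand of CCR2, had 406, 1933 and 1422 at 18 h and 42.2, 8.51 and 10.7 in bone marrow (5.02, SE 0.53), and Ccl12, another, rose by 4.19. Cxcl1, a neutrophil attractant, had 2703, 7310.1 and 9496 at 18 h and 339, 455 and 147 in bone marrow (4.26). In both groups the arrays spread several-fold for Ccl7 and Cxcl1, yet the lowest 18 h array was above the highest of bone marrow. Il1b, interleukin-1 beta, rose by 2.52, and Acod1, which makes itaconate, by 4.09. Saa3, an acute-phase protein, had 27397, 19148 and 26193 at 18 h and 159, 305 and 326 in bone marrow (6.49). Il10, the anti-inflammatory cytokine, had 38.6, 115 and 83.7 at 18 h and 16.01, 3.41 and 12.3 in bone marrow, and its rise of 1.82 was not called when 60 in place of 15 was added to the signals. Nos2, the inducible nitric oxide synthase, did not pass the filter, with 4.84, 3.63 and 8.18 at 18 h and 6.51, 4.54 and 6.79 in bone marrow. The gene that fell was Inhba, the activin A chain, with 9.998, 11.6 and 15.7 at 18 h and 139, 101 and 552 in bone marrow (-2.99).

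Among 20 chemoattractant receptors and adhesion molecules, 9 rose and 2 fell, against 7.28% and 8.26% of all genes. C3ar1, the receptor for the complement fragment C3a, had 7534, 8201 and 5839.9 at 18 h, against 45.1, 70.6 and 100.2 in bone marrow (6.41), and C5ar1, the C5a receptor, had 1950.4, 2692 and 1916 at 18 h, against 114, 99.01 and 159.6 in bone marrow (3.99). Cxcr4, the receptor that holds cells in the marrow, moved the other way, with 239, 585 and 162 at 18 h and 3058, 3166 and 3962 in bone marrow (-3.50, adjusted p = 9.3e-07). The other gene that fell was the integrin chain Itgal (-1.20), a call lost with the mean of its probe sets. For C3ar1, C5ar1 and Cxcr4 the arrays of the groups did not overlap, as for 46.4% of all genes. Of 21 pattern recognition genes, 7 rose and 0 fell, against the same shares of all genes. The lectin genes Clec4d and Clec4n, whose products sense fungal walls, rose by 2.99 and 2.42, and the Toll-like receptor genes Tlr4 and Tlr1 by 2.87 and 2.64, Tlr4 by 1.37 with the mean of its probe sets. Clec7a, which encodes the beta-glucan receptor for zymosan, had 6458, 10792 and 9104 at 18 h and 15006, 13329 and 14029 in bone marrow, a change of -0.71 that did not reach the fold threshold.

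Most genes of antigen presentation on MHC class II were higher. H2-Ab1, a class II beta chain, had 7676, 9701 and 12246 at 18 h and 1014, 909 and 807 in bone marrow (3.40, adjusted p = 5.6e-08). H2-Eb1 rose by 3.34, Cd74, the invariant chain, by 2.90 and Lgmn, a protease that cuts antigen in lysosomes, by 3.47. Of 16 genes of class II and costimulation, 9 rose and 1 fell, against 7.28% and 8.26% of all genes. The one was Cd83, whose call was lost in 10 of 17 alternatives. Markers of B cells, which also carry class II, were mixed. Ms4a1, which encodes CD20, had 2185, 1968 and 1228 at 18 h and 167, 134 and 249.6 in bone marrow (3.19). Cd79b, a chain of the B cell receptor, had 619, 639 and 508 at 18 h and 439, 384 and 448 in bone marrow (0.46, not called). Ighm, the mu heavy chain, had 3029, 2893 and 2189 at 18 h and 8428, 6155 and 8326 in bone marrow (-1.49). It was not called for its adjusted p, though its groups did not overlap. Of the 9 B cell genes tested, Ms4a1 and the adaptor gene Blnk (1.36, lost in 3 of 17 alternatives) rose, with 5 changes above 0 and a median of 0.46. The summed signal of the 10 list genes with a probe set used here was 4514 to 6892 at 18 h and 7349 to 9719 in bone marrow. In bone marrow it is mostly that of Ighm. The part of B cells in the class II result was not tested.

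Of 29 lysosomal genes, 5 rose and 1 fell, against 7.28% and 8.26% of all genes, with a median of 0.18. The proteases Ctsl and Ctsd rose by 2.37 and 1.85, the acid phosphatases Acp2 and Acp5 by 2.80 and 1.19, and beta-glucuronidase, Gusb, by 1.07, the Gusb call lost in 3 and the Acp5 call in 1 of 17 alternatives. The gene that fell was Gla, alpha-galactosidase (-1.18), a call lost with the mean of its probe sets. In lipid handling, 13 of 22 rose and 0 fell, against the same shares of all genes, with a median of 1.22. Mlxipl, a glucose-sensing transcription factor of lipid synthesis, had 3557, 1848 and 1711 at 18 h and 20.9, 53.1 and 40.7 in bone marrow (5.46). Pltp, the phospholipid transfer protein, rose by 3.99, Abca1, which exports cholesterol, by 3.88 (1.52 with the mean of its probe sets) and Apoe, apolipoprotein E, by 2.08. Of 18 cholesterol synthesis genes 2 rose, against 7.28% of all genes, Sqle at 1.53 and Cyp51 at 1.11, and the number ran from 1 to 5 over the alternatives.

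Among 22 genes of glycolysis and hypoxia, 8 rose and 1 fell, against 7.28% and 8.26% of all genes. Pfkl, the liver-type phosphofructokinase, rose by 2.21, Pdk1, which inhibits pyruvate dehydrogenase, by 2.08, and Bnip3, a hypoxia target, by 1.52. The gene that fell was the glucose transporter Slc2a3, a call lost in 6 of 17 alternatives. None of 23 respiratory chain genes was called in either direction, against 15.5% of all genes, with a median of 0.01. Among 17 iron and heme genes, 4 rose and 1 fell, against 7.28% and 8.26% of all genes. Slc11a1, an iron exporter of the phagosome, rose by 2.18, Hmox1, heme oxygenase, by 1.94, Blvrb, biliverdin reductase B, by 1.35 (lost in 1 of 17 alternatives) and Cd163 as above. Slc40a1, ferroportin, had 27.4, 41.3 and 65.4 at 18 h and 263, 163 and 1451 in bone marrow (-2.85), bone marrow replicate 3 far above the other arrays.

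Of 25 interferon response genes, 4 rose and 5 fell, against 7.28% and 8.26% of all genes, with a median of -0.06. The guanylate-binding protein genes Gbp2 and Gbp3 rose by 1.73 and 1.29, Oas2, an oligoadenylate synthetase, by 1.24 (lost in 1 of 17 alternatives) and Rtp4 by 1.40. Cmpk2, a mitochondrial nucleotide kinase, had 801, 714 and 836 at 18 h and 3719, 4083 and 2882 in bone marrow (-2.15), and Ifit2 and Ifit3, which bind viral RNA, fell (changes of -2.00 and -1.58). Mx2 and Usp18 fell (changes of -1.51 and -1.16), both calls lost without bone marrow replicate 2. Of 32 transcription factors of the lineage, 9 rose and 7 fell, against the same shares of all genes, with a median of 0.26. Maf, which drives macrophage genes, had 13782, 13544 and 12887 at 18 h and 522, 596 and 427 in bone marrow (4.67, adjusted p = 9.4e-15). Batf3 rose by 2.38. Irf8, a factor of monocyte development, had 5845, 4458 and 3949 at 18 h and 17966, 16074 and 13792 in bone marrow (-1.75). Each of these 3 factors was separated between the groups in every array, as were 46.4% of all genes.

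Of 22 receptors for growth factors and cytokines, 2 rose and 6 fell, against 7.28% and 8.26% of all genes, with a median of -0.02 and 11 changes on each side of 0. Met, the receptor for hepatocyte growth factor, had 316, 231 and 297 at 18 h and 4600.4, 4103 and 3935 in bone marrow (-3.84, SE 0.28, adjusted p = 8.8e-10). Csf3r, the receptor for granulocyte colony-stimulating factor, fell by 1.22, Il1r2, a decoy receptor for interleukin-1, fell by 2.04 and Flt3, a receptor of early progenitors, fell by 1.87. Tgfbr2, a receptor chain for transforming growth factor beta, rose by 1.43 and the interleukin-4 receptor chain Il4ra by 1.36, both calls lost with the mean of their probe sets. In the eicosanoid list, 8 of 18 rose and 2 fell, against the same shares of all genes. Ltc4s, leukotriene C4 synthase, had 3888, 2393 and 3069 at 18 h and 13.3, 33.8 and 27.03 in bone marrow (6.31). Cbr2, a carbonyl reductase, rose by 5.22, Ptgis, prostacyclin synthase, by 5.66 and Tbxas1, thromboxane synthase, by 2.94, while Hpgd, which breaks prostaglandins down, fell by 2.78 and Lta4h, which makes leukotriene B4, fell by 1.44, the Lta4h call lost with the mean of its probe sets.

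Of 26 growth factor and matrix genes, 14 rose and 1 fell, against 7.28% and 8.26% of all genes. Serpinb2, an inhibitor of plasminogen activators, had 9795, 9433 and 4145 at 18 h and 21.1, 24.2 and 27.9 in bone marrow (7.53). Ecm1, a matrix glycoprotein, had 9569.6, 8651 and 9578 at 18 h, against 209, 229.6 and 213 in bone marrow (5.32), and the metalloproteinase inhibitors Timp1 and Timp2 rose by 4.55 and 3.78. Igf1, a growth factor for tissue repair, rose by 2.44. The gene that fell was Mmp8, the collagenase of neutrophil granules, with 240.4, 155 and 236 at 18 h and 2958, 3498 and 1862 in bone marrow (-3.61). Among genes outside the lists, Aldh1a2, which makes retinoic acid, had 1573, 1611 and 1608 at 18 h and 3.49, 1.30 and 8.27 in bone marrow (6.40), and the endothelin receptor gene Ednrb rose by 6.37.

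**Figure D4:**
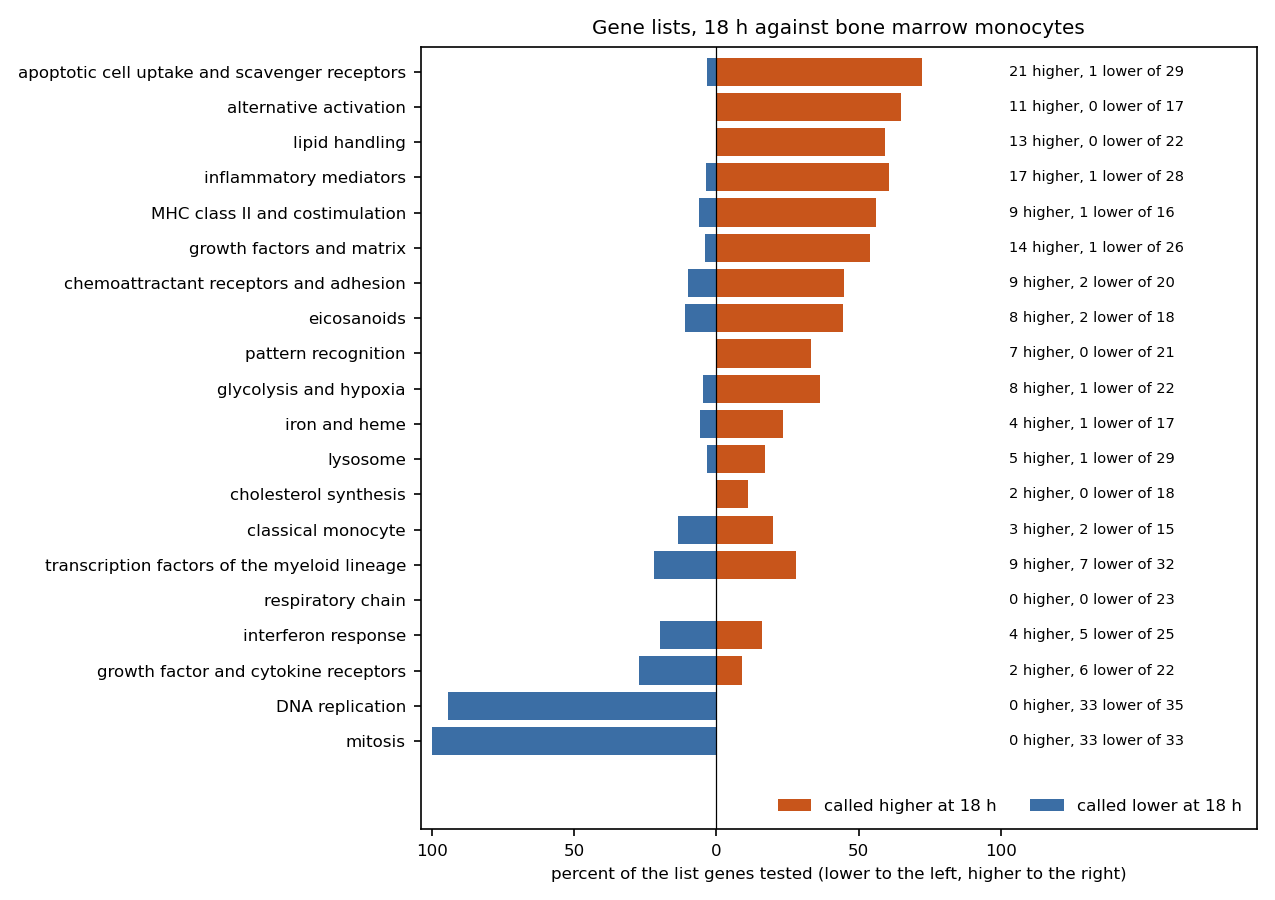
Bars give the percent of each list's tested genes that were called higher at 18 h (right) and lower at 18 h (left) against bone marrow, with the counts beside them. The mitosis list, 33 of 33 lower, and the list of apoptotic cell uptake and scavenger receptors, 21 of 29 higher, are at the ends. Over all 12155 genes the shares were 7.28% and 8.26%.

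The second question was how much of this stood at 4 h already. The comparison of 18 h with 4 h tests that difference, since the bone marrow arrays cancel in it. Those of 18 h and of 4 h with bone marrow share the bone marrow arrays and are given side by side. The 18 h gate took in cells with low Ly-6B, which the 4 h gate does not name. Any difference between 18 h and 4 h, written as rose or fell, thus joins the later hour with the wider gate. The share of each was not tested. Between 18 h and 4 h, 1320 genes (10.9%) rose and 544 (4.48%) fell. The median gene differed by 0.14 and the array medians by 0.29, and with arrays set to a common median the split was 731 higher and 985 lower. At 4 h against bone marrow, 905 genes (7.45%) rose and 1759 (14.5%) fell, or 1598 and 1110 with a common median. The split into higher and lower between 18 h and 4 h thus turned with the scaling, and small changes in it have no settled direction.

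Some large increases over bone marrow stood at 4 h already and differed by under 0.5 on the log2 scale between 18 h and 4 h. Rgl1, a regulator of Ral GTPases, had 5.03, 7.03 and 22.3 in bone marrow, 1817, 1736 and 1736 at 4 h and 1633, 1745 and 1629 at 18 h. The change over bone marrow was 6.13 at 4 h and 6.05 at 18 h. Maf had 522, 596 and 427 in bone marrow, 14468, 11432 and 9201 at 4 h and 13782, 13544 and 12887 at 18 h, and Serpinb2 was 7.30 above bone marrow at 4 h and 7.53 at 18 h. Saa3, Ccl7, Ccl12, Emp1, a membrane protein of epithelia, and Basp1, which binds the inner membrane, were in the same class, with 18 h against 4 h changes between -0.33 and 0.35. Dab2, which differed by 0.53 between 18 h and 4 h, changed by 7.21 at 4 h and 7.74 at 18 h. Since the array medians of 18 h and 4 h differ by 0.29, which genes lie under 0.5 depends on the scaling.

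Large decreases were found at both times for genes of division and granules. Nuf2 had 2812, 2263 and 2837 in bone marrow, 1.81, 7.40 and 7.34 at 4 h and 6.74, 6.78 and 15.3 at 18 h. Camp was -7.67 against bone marrow at 4 h and -8.02 at 18 h, and Mpo was -7.71 at 4 h and -7.98 at 18 h. S100a8 and Lcn2, lipocalin 2, were lower at both times and fell from 4 h to 18 h (changes of -2.64 and -3.23). Of the 33 mitosis genes, 33 fell at 4 h, against 14.5% of all genes. Between 18 h and 4 h 6 of them rose and 0 fell, or 5 and 1 with a common array median. Of the 35 replication genes, 18 rose and 0 fell from 4 h to 18 h, against 10.9% and 4.48% of all genes, or 12 and 0 with a common array median. With a mean of 375 ± 27.7 for Mcm5 at 4 h and 1262 ± 218 at 18 h, the change was 1.70, and for Pola1 it was 1.23.

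Other increases were larger at 18 h than at 4 h. Arg1 had 2.69, 5.44 and 1.59 in bone marrow, 6807, 4929 and 1931 at 4 h and 28104, 27586 and 33599 at 18 h, and the change from 4 h to 18 h was 2.88 (adjusted p = 3.7e-07). C1qa had 4.74, 9.05 and 7.05 in bone marrow, 491, 1140.1 and 214 at 4 h and 8922, 7587 and 9259.5 at 18 h (4.07 from 4 h to 18 h). Ltc4s had 13.3, 33.8 and 27.03 in bone marrow, 47.9, 149 and 17.9 at 4 h and 3888, 2393 and 3069 at 18 h, and its change was 0.85 at 4 h, not called, and 5.46 from 4 h to 18 h. Cbr2 and Mlxipl followed Ltc4s, with 4.82 and 5.00 from 4 h. Of the 18 resident macrophage genes 14 were called higher at 18 h than at 4 h and 1 lower, against 10.9% and 4.48% of all genes, or 12 and 1 with a common array median. Of the 29 uptake genes, 13 were called higher and 3 lower, against the same shares of all genes, or 11 and 3 with a common array median. The second 4 h array was the highest for the resident genes Alox15 (131, 2200 and 156 at 4 h) and Itga6 (217, 528 and 115). That of Alox15 overlapped the 18 h arrays. Adgre1, of the same list, was even at 4 h (8033, 8248 and 7885). The part of this array in the counts from 4 h was not tested. Met and Rab44, a Rab-family GTPase, were lower at 18 h alone, changing by -0.06 and -0.09 from bone marrow to 4 h, neither called. Met had 4600.4, 4103 and 3935 in bone marrow, 4127, 3856 and 4142 at 4 h and 316, 231 and 297 at 18 h, and Rab44 fell by 3.56 from 4 h.

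A further set was high at 4 h alone and was not called at 18 h against bone marrow. Sphk1, sphingosine kinase 1, had 10.997, 64.7 and 59.5 in bone marrow, 1628, 1980.1 and 2141 at 4 h and 67.3, 112 and 55.2 at 18 h. The change was 5.16 at 4 h and -4.41 from 4 h to 18 h. Arg2, the mitochondrial arginase, was 3.99 above bone marrow at 4 h, and its level at 18 h was 45.8, 112 and 76.6, so that of the arginase genes Arg1 rose and Arg2 fell from 4 h to 18 h. Smox, which oxidises spermine, Cd244a, a receptor of the SLAM family, Dmkn and Chst11 changed by 4.10, 4.14, 4.15 and 4.32 at 4 h, and by -3.60, -3.22, -3.61 and -3.43 after it. At 18 h against bone marrow, Cd244a (0.92) and Chst11 (0.89) were not called, Cd244a for its size and Chst11 for its size and its adjusted p of 0.083. They were called in 2 of 17 alternatives each. In the other direction Fam214a, Gpr160 and Espl1, which encodes separase, were low at 4 h alone, at -3.32, -2.99 and -2.86, and stood at -0.64, -0.43 and -0.27 at 18 h.

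Many inflammatory mediators were lower at 18 h than at 4 h. Of 28 tested, 23 rose and 0 fell at 4 h against bone marrow, where 7.45% and 14.5% of all genes did. From 4 h to 18 h 1 rose and 12 fell, against 10.9% and 4.48% of all genes. The counts of 1 and 12 were the same under a common array median. Il1rn, the interleukin-1 receptor antagonist, had 176, 196 and 230.2 in bone marrow, 11391, 12774 and 12193 at 4 h and 456, 570.4 and 406 at 18 h (-4.64 from 4 h). Its change of 1.18 over bone marrow at 18 h was not called with the mean of its probe sets or with the Gapdh covariate. Cxcl3, a neutrophil attractant, changed by 7.12 at 4 h and 4.04 at 18 h, Il1b by 4.78 at 4 h and 2.52 at 18 h, and Acod1 by 6.70 at 4 h and 4.09 at 18 h. Ptgs2, the inducible cyclooxygenase, was 3.39 at 4 h and 0.47 at 18 h, the second not called. Pattern recognition genes went the same way, 1 higher and 8 lower of 21 from 4 h, or 1 and 11 with a common array median, with Clec4n at 5.28 at 4 h and 2.42 at 18 h. The proteases Mmp14 and Mmp19 changed by 4.60 and 6.38 at 4 h and by 2.84 and 3.26 at 18 h. Vcan fell by 1.62 and Tgm2 fell by 1.22 from 4 h, both still called higher than in bone marrow.

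**Figure D5:**
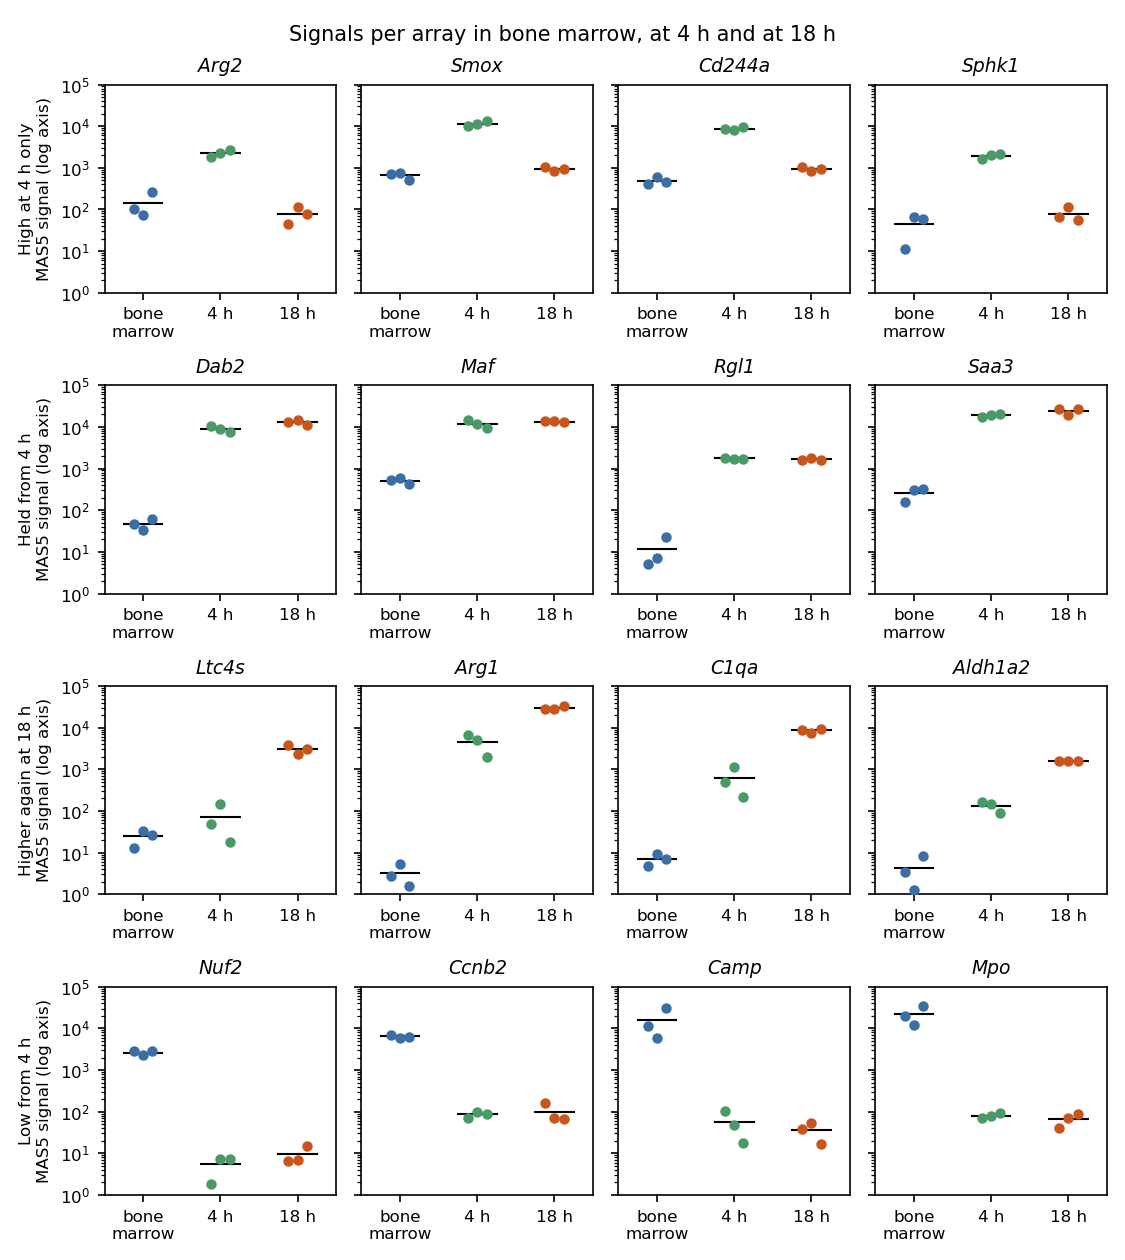
Each panel shows 1 gene, with the MAS5 signal of each array on a log axis in bone marrow, at 4 h and at 18 h, and a bar at each group's mean. The rows hold genes high at 4 h alone, genes at a like level at 4 h and 18 h (Dab2 differing by 0.53), genes that were higher again at 18 h, and genes low from 4 h on, with Nuf2 at 5.52 ± 3.21 at 4 h and 9.62 ± 4.95 at 18 h (mean ± SD of 3 arrays).

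Markers of other cells and of RNA handling were measured beside these results. In the T and NK cell list, Nkg7 fell by 2.28 and Gzma rose by 2.00, calls lost in 5 and in 1 of 16 alternatives. Cd3d, a T cell receptor subunit, did not pass the filter, with 2.34, 3.98 and 3.86 at 18 h and 25.9, 6.90 and 13.5 in bone marrow. Of the mast cell protease genes, Cpa3 had 352, 329 and 283 at 18 h and 129, 125 and 113 in bone marrow, not called, and Cma1, called at 1.65, lost its call in 10 of 16 alternatives. The eosinophil gene Prg2 had 31.7, 28.3 and 21.7 at 18 h and 186, 115 and 617 in bone marrow (-2.60), and 0 of 2 fibroblast or mesothelial genes were called. Pf4, a chemokine of platelets that macrophages also make, had 11713, 9512 and 9286 at 18 h and 328, 155 and 1350.1 in bone marrow (4.56), while the platelet integrin gene Itga2b had an opposite sign (-1.06), a call lost in 6 of 16 alternatives. The erythroid genes Car1 and Slc4a1, near the floor at 18 h, fell (changes of -1.84 and -2.31), and of 4 dendritic cell genes Flt3 alone was called. Of 15 handling stress genes, 2 rose and 3 fell, against 7.28% and 8.26% of all genes. Those that rose were Ier3 (3.07) and the chaperone gene Hsph1 (1.90). Those that fell were Jun (-1.36, lost in 1 of 17 alternatives), Atf3 (-1.34) and Fosb (-4.66). Fosb, an immediate early gene, had 179.8, 266 and 217 at 18 h and 5876, 5567 and 6221 in bone marrow. Fos (-0.31), Dusp1 (-0.16) and Zfp36 (-0.26) were not called. The 3' to 5' ratio of Gapdh, which is high in broken RNA, was 1.64 to 2.12 at 18 h and 2.17 to 2.84 in bone marrow, so that it moved with the groups, and with it as a covariate 868 genes rose and 943 fell.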

How the data were processed

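RNA of sorted cells was extracted with TriZol and 100 ng was labelled in 2 cycles for Affymetrix Mouse 430 2.0 arrays, per the labels' protocols. The authors made the deposited intensity values, unlogged MAS5 signals, with Affymetrix Expression Console 1.2, per the submitters' processing notes. The 2% trimmed mean of each of the 21 arrays was 500.0. Detection calls were not used here.

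Of 45101 probe sets, those with 1 gene symbol (34958) were kept, and 932 with several and 9211 without one were left out. For each of 18194 genes the probe set brightest on average, as log2(signal + 15) over the arrays, was used. The 12155 genes that exceeded the table median of 80.6 on 3 or more arrays were tested in R 4.3.3 with limma 3.58.1 (lmFit, eBayes with a trend, 2-sided) over the 21 arrays in 7 groups, with 14 residual degrees of freedom. Nothing in the labels says that replicates were processed in separate batches. The p-values measure the spread between biological replicates of one study.

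The 32 gene lists held 667 entries, 49 of them with no probe set used here. The comparison, the lists and the rule for named genes were chosen with earlier results of these data known. The rule takes the 12 largest changes in each direction, up to 4 members of a process list, up to 3 of a cell list, and the 8 largest of each course from 4 h to 18 h. Named after their values were seen, outside the rule, were Acod1, Alox5, Apoe, Atf3, Batf3, Blnk, Blvrb, Car1, Clec7a, Csf3r, Cxcl3, Elane, Folr2, Fosb, Gata6, Gbp3, Gusb, Hp, Hsph1, Ier3, Igf1, Il1b, Il1rn, Il4ra, Irf4, Irf8, Itga6, Itgal, Itgav, Jun, Lrg1, Lta4h, Marco, Mcm5, Mcm7, Mertk, Mmp14, Mmp19, Mmp9, Mx2, Oas2, Padi4, Pola1, Ptgs2, Rtp4, Stab1, Tbxas1 and Usp18. Promoters are RefSeq's. On simulated data of the same size with normal noise, 46, 49, 50 and 50 of 50 genes changed by 1.5, 2, 3 and 4 on the log2 scale were recovered. Of the unchanged genes 4 were called. The changed genes had middle levels in bone marrow, so the recovery of genes near the floor was not tested. Alternatives were other pseudocounts, scalings, filters, probe set means, no trend, no minimum fold, the replicate block, the Gapdh ratio, the compared arrays alone, and each replicate left out.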

Additional observations from a re-analysis of the deposited data

Results flagged for a closer look

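Genes of the lists that were called in opposite directions at 4 h and at 18 h against bone marrow are set out here, since the change at 18 h then differs from that at 4 h by more than its size. The difference itself was tested in the 18 h against 4 h comparison, in which the Ly-6B gate differs as well as the hour.

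Inhba, the activin A chain, had 139, 101 and 552 in bone marrow, 662, 784 and 847 at 4 h and 9.998, 11.6 and 15.7 at 18 h, a change of -4.83 from 4 h to 18 h (adjusted p = 4.2e-07). Mmp8, a collagenase, had 2958, 3498 and 1862 in bone marrow, 6149, 6047 and 6108 at 4 h and 240.4, 155 and 236 at 18 h (-4.79). Cd83 was 1.79 at 4 h and -1.01 at 18 h against bone marrow, -2.80 from 4 h, and its call at 18 h was lost in 10 of 17 alternatives. These genes were highest at 4 h.

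Alox5, which starts leukotriene synthesis, had 424, 328 and 890.1 in bone marrow, 98.8, 145 and 152 at 4 h and 1839, 1596 and 1201 at 18 h, and differed by 3.41 from 4 h to 18 h (adjusted p = 1.2e-09). The transcription factor Irf4 had 629.5, 484 and 554 in bone marrow, 222, 235 and 222 at 4 h and 1816, 1763 and 2121 at 18 h (2.98), the gelatinase Mmp9 differed by 2.74 and the integrin chain Itga6 by 2.40, its call at 18 h against bone marrow lost in 4 of 17 alternatives. The means of these genes were lowest at 4 h. For Itga6 the arrays of bone marrow (682, 524 and 702) and of 4 h (217, 528 and 115) overlapped. With a common array median Irf4, Mmp9 and Itga6 were no longer called at 4 h against bone marrow.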

How the results depend on the processing

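Of 18 h against bone marrow, 885 genes rose and 1004 fell, and leaving out 1 replicate gave 861 to 898 and 954 to 1044. Without a minimum fold the counts were 2162 and 2234. From 4 h to 18 h, leaving out 1 replicate gave 1296 to 1336 higher and 537 to 604 lower, no minimum fold 3341 and 1519, and a common array median 731 and 985. At 4 h against bone marrow these were 876 to 930 and 1702 to 1830, 1996 and 3660, and 1598 and 1110. The common median centres arrays on the genes tested and the authors' scaling on all probe sets, and the cause of the difference was not tested. The Gapdh covariate turned Cx3cr1, not called, to 0.16.

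The deviations from the group means of same-numbered arrays of 18 h and bone marrow correlated at 0.08, 0.01 and 0.12. Those of differently numbered arrays correlated at -0.13 to 0.07. These few values do not settle whether replicate numbers pair the arrays, and the main fit leaves the numbers out. With the replicate block, 890 genes rose and 1009 fell, from 4 h to 18 h 1325 and 550, and at 4 h 906 and 1760. Of 178 gene results, 27 lost a call and 4 gained one under at least 1 alternative, and of 64 counts of list members called 24 moved by over 1.5 times under at least 1. The MHC class II count of 1 lower became 0 in 10 alternatives, progenitor genes lower went to 7 with the stricter filter, and with the Gapdh covariate lysosomal genes higher went to 3 and interferon genes lower to 8. The change of a named gene moved by over 1.5 times for 32 genes with the mean of probe sets, 14 with the Gapdh covariate, 27 and 47 with a pseudocount of 1 and 60, and 16 without bone marrow replicate 3, against 0 to 7 without another replicate. Signals near the floor limit the size of a fold.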
